A study of Mus musculus with 12 samples.

Results

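The genomic windows named for Slc4a4 and App each held a cluster of open chromatin found almost entirely in conventional CD4+ T cells (Tconv) and not in regulatory T cells (Treg). The clusters were chosen by measured values of these same libraries, the presence of peaks in Tconv and their absence in Treg, so the contrast between the cell types is given below as a description, with no test. A window of 470 kb on chromosome 5, from 89250000 to 89720000, was taken for Slc4a4, and a window of 290 kb on chromosome 16, from 84930000 to 85220000, for App (genome build NCBIM37). Overlapping and touching peaks of the 12 lists were joined, and each joined stretch is called an element. The windows held 129 of 275880 peaks and 26 of 40457 merged regions of the genome, 16 elements at Slc4a4 (S1 to S16, in order of position) and 10 at App (A1 to A10). The gene names of the windows are those they were given for this work, and where an element lies within a gene (exon, intron or UTR) was not determined, since the annotation used here is of another build.

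ATAC-seq, which marks accessible DNA by insertion of the Tn5 transposase, was run on splenic CD4+ T cells sorted at 100000 cells per library. Treg expressed GFP from a reporter in the Foxp3 gene and Tconv were GFP-negative. Donor mice were either wild type (WT) or without the enhancer that the labels call Lrrc32+ 70k (KO). Lrrc32 encodes GARP, a Treg surface protein that holds latent TGF-beta, and every mouse carried the reporter, controls included. The groups were WT Tconv, KO Tconv, WT Treg and KO Treg, with 3 libraries each. The labels do not say that each library came from its own animal, and p-values therefore measure only the spread between these libraries, which may be technical. The sorted gate rests on a reporter, so the Tconv gate holds every CD4+ cell without GFP, naive and activated cells alike.

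Slc4a4 encodes NBCe1, a membrane transporter that moves sodium together with bicarbonate and thereby takes part in the control of intracellular pH, best known from the kidney and pancreas. App encodes the amyloid precursor protein, a transmembrane protein made in many tissues whose cleavage by secretases releases amyloid-beta. Open chromatin outside gene starts often marks enhancers, stretches bound by transcription factors that can act on a gene over long distances. No measurement here links an element to either gene. In the GRCm38.p6 gene table the nearest protein-coding neighbours of Slc4a4 on chromosome 5 are Dck and Gc, and those of App on chromosome 16 are Gabpa and Cyyr1.

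The starts of both genes are shown because a gene start is the usual place of shared open chromatin, against which distal elements are read. The sequences are RefSeq's 250 bases upstream of each listed start on GRCm38.p6, matched by symbol (both genes matched, with 3 starts). Capitals mark the E-box letters CACCTG on either strand.
Slc4a4 start 1, chr5:88887010-88887259, plus strand: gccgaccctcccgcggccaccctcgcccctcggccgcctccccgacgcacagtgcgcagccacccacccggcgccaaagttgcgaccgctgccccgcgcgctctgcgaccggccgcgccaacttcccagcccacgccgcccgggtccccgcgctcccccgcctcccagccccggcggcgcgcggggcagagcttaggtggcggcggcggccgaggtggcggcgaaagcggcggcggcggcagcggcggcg
Slc4a4 start 2, chr5:89027716-89027965, plus strand: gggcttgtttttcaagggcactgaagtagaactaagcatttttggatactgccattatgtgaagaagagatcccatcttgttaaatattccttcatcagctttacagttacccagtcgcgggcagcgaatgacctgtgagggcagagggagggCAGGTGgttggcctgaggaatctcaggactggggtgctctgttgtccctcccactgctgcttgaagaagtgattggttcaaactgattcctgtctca
App start, chr16:85173708-85173957, minus strand: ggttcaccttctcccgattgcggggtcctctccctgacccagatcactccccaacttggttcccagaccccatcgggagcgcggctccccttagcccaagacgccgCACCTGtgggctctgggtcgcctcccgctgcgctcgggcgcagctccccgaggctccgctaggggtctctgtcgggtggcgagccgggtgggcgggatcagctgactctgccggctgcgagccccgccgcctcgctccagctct
These positions belong to GRCm38.p6 and cannot be set beside the NCBIM37 positions of the elements. The first Slc4a4 stretch held 44 CpG dinucleotides and 82.0% G or C, the second held 3 and 48.8%, and the App stretch held 23 and 70.8%. Over 32851 listed starts the median was 6 CpG and 52.4%. The first Slc4a4 start and the App start were thus CpG-rich, and the second Slc4a4 start was not. CACCTG was present in the second Slc4a4 stretch and in the App stretch, and in 17.2% of all stretches of this length. The search covered both strands and 6 further motifs, none of whose letters are in these 3 stretches. The TCF/LEF letters CTTTGAT stood in 3.21% of all stretches. The RUNX letters TGTGGT stood in 14.0%, and the ETS letters AGGAAG in 29.5%. The forkhead letters TGTTTAC stood in 3.17% and the AP-1 letters TGANTCA in 6.75%. The GATA letters AGATAAG stood in 2.74% of all stretches.

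The lists held 21269 to 25283 peaks in the 6 Tconv libraries and 22883 to 27605 in 5 of the 6 Treg libraries. KO Treg replicate 2 stood apart with 5262 peaks. Some values that touch it are given with and without it. Most counts and shares over the genome, and all counts in intervals, are given only with it. The lowest −log10 p was between 5.005 and 5.064 in every list, so an element without a peak was below that limit in that library and not shown to be closed. Peak names carry sample numbers that differ from those of the deposited lists, except in WT Tconv replicate 3 and KO Treg replicate 1. Which of them is right was not settled, so groups follow the sample titles. Markers of Treg, Tconv and other cell types, and the deleted enhancer itself, were not checked here, since their positions on NCBIM37 were not used. In bulk libraries, fewer open cells and less openness per cell cannot be told apart.

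At Slc4a4, 10 of the 16 elements had a peak in all 6 Tconv libraries and in no Treg library. These 10 elements spanned 270.5 kb, from 89357462 to 89627989, with a median gap of 32.1 kb between neighbours. At App, 4 of 10 elements showed the same pattern and another, A7, lacked a peak in WT Tconv replicate 3 alone. The 5 App elements lay within 29.18 kb, from 84971869 to 85001043, with a median gap of 6.997 kb. The App cluster was therefore compact and the Slc4a4 cluster long and spaced out. No element of either window was Treg-enriched. For reference, 1.63% of the 32787 regions found in 2 or more lists had a peak in 6 Tconv and 0 Treg libraries, 3.55% were Tconv-enriched (the number of Tconv libraries with a peak exceeding that of Treg libraries by 5 or more) and 3.2% were Treg-enriched. These shares include KO Treg replicate 2. Without that library, and with a difference of 4 or more, 11 Slc4a4 and 6 App elements were Tconv-enriched. With all 12 lists a difference of 4 or more also gave 11 and 6. Nothing is read from these shares and counts, since the windows were chosen on this contrast.

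**Figure D1:**
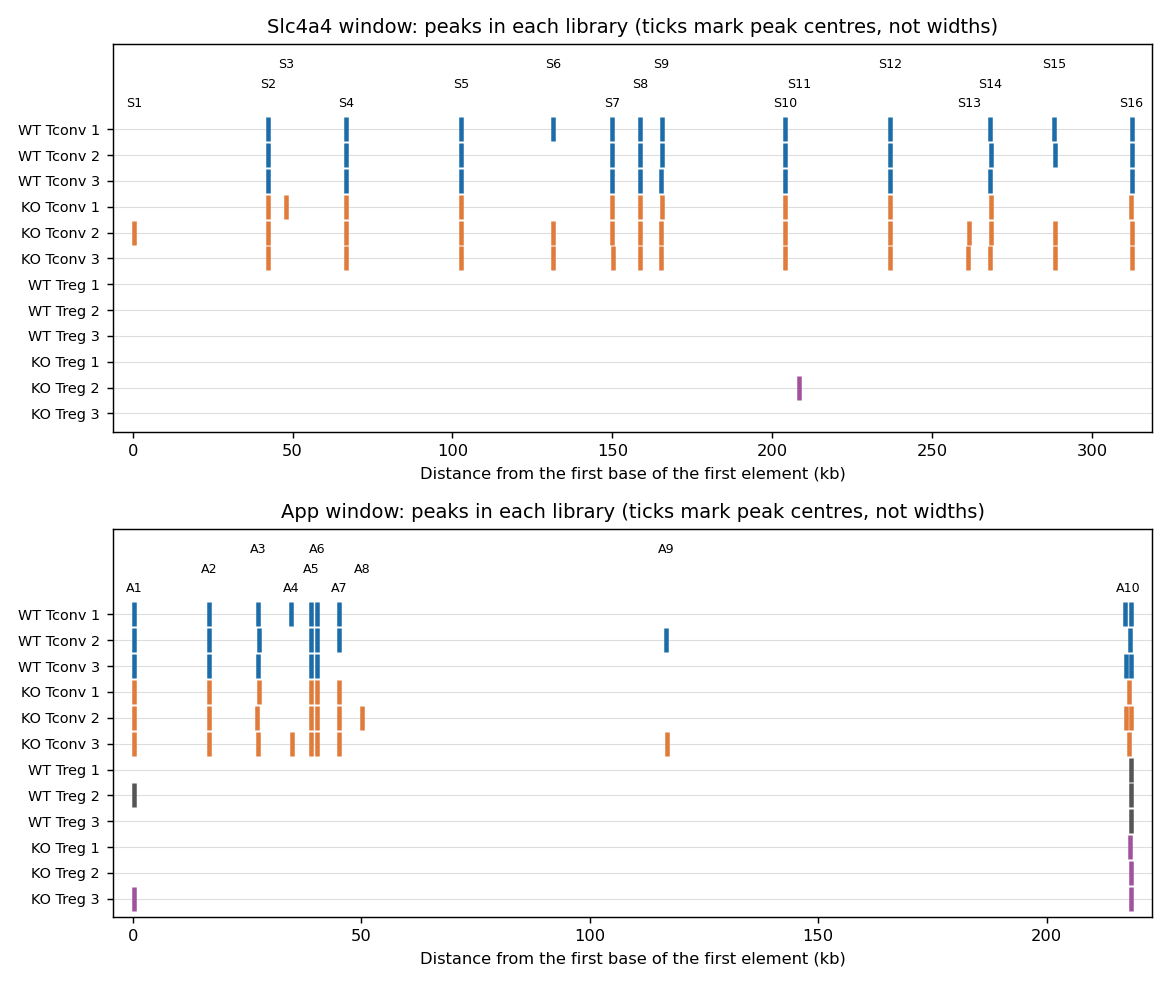
Peaks of the 12 libraries (rows) in the Slc4a4 window (top) and the App window (bottom), by distance in kb from the first element; each tick marks the centre of a peak, coloured by group, and names above are the elements. The 10 Slc4a4 elements with a peak in every Tconv list stand as full columns over the upper 6 rows and none has a tick in a Treg row, whereas A10 at the right end of the App window has ticks in all 12.

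The strength of a peak is given as its percentile by −log10 p among all peaks of its own list, so that 80 means that 80% of that library's peaks were weaker. The strongest Slc4a4 element was S12 (89551855 to 89552700). It ranked at percentiles of 77.35, 85.3 and 89.1 in WT Tconv replicates 1 to 3 and at 72.8, 87.1 and 80.3 in KO Tconv replicates 1 to 3. Its mean was 82.0 ± 6.27 (SD, n = 6), and it was among the 3 strongest of the 10 elements in all 6 libraries. S7 (89464925 to 89465988) and S8 (89473490 to 89474453) lay 7.50 kb apart near the middle of the cluster. S7 ranked at 76.0, 82.55 and 81.3 in WT and at 75.9, 66.7 and 81.8 in KO Tconv. S8 ranked at 71.9, 76.6 and 78.4 in WT and at 78.7, 69.2 and 77.7 in KO Tconv. Their means, 77.4 ± 5.997 and 75.4 ± 3.93 (SD, n = 6), differed from each other by less than the spread of S7 between libraries. S7 and S8 also had the longest peaks of the 10 in 5 of 6 lists, with medians of 889.5 bp and 861 bp per library, S12 passing S7 in WT Tconv replicate 3.

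S9 (89480371 to 89481094), 5.92 kb further on, ranked at 56.0, 71.7 and 61.6 in WT and at 54.4, 76.6 and 71.6 in KO Tconv. S10 (89519014 to 89519779) ranked at 81.0, 74.1 and 55.2 in WT and at 53.8, 46.3 and 73.0 in KO Tconv. S9 and S10 had nearly equal means, 65.3 ± 9.225 and 63.9 ± 13.9 (SD, n = 6), and each ranged widely in both genotypes. S16 (89627496 to 89627989), the rightmost element, ranked at 50.3, 72.45 and 72.7 in WT and at 34.7, 47.9 and 60.15 in KO Tconv. Its mean of 56.4 ± 15.0 put it below S9 and S10 but within their spread.

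The remaining 4 elements of the full columns were weaker. S14 (89583297 to 89583895) ranked at 53.3, 53.2 and 38.3 in WT and at 12.6, 31.8 and 31.6 in KO Tconv. S4 (89381922 to 89382494) ranked at 9.07, 54.1 and 26.4 in WT and at 36.5, 27.9 and 22.0 in KO Tconv. S2 (89357462 to 89357968) ranked at 14.1, 41.3 and 24.2 in WT and at 22.7, 10.6 and 61.5 in KO Tconv. S2 and S4, the 2 leftmost of the 10, thus varied widely, with means of 29.1 ± 19.1 and 29.3 ± 15.1 (SD, n = 6) that did not differ beyond this spread. S5 (89417906 to 89418359) was the weakest, at 19.0, 16.7 and 8.03 in WT and at 28.65, 21.6 and 20.3 in KO Tconv. It was the lowest of the 10 in 3 of 6 libraries. The highest means over the 6 libraries therefore lay together from S7 to S12. S16, at the right end, was within the spread of S9 and S10. The 3 elements left of S7, S2, S4 and S5, were all weak.

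Fold enrichment over background, the authors' own value for each peak, gave a similar order at the ends but not in the middle, where S9 (6.58 to 7.75) lay above S8 (5.89 to 7.04) in 3 of 6 libraries. It ranged over the 6 Tconv libraries from 7.48 to 9.36 at S12, from 6.29 to 7.87 at S7 and from 4.675 to 5.36 at S5. At each of the 10 elements the peaks of all 6 libraries shared a common stretch, from 145 bp at S14 to 631 bp at S8, so the peaks of every Tconv library covered some of the same DNA. With −log10 q of at least 5, S7, S8, S9, S10, S12 and S16 had a peak in all 6 Tconv libraries, S4 and S14 in 5, and S2 and S5 in 4.

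Another 5 Slc4a4 elements had peaks in only some Tconv libraries. S15 (89603372 to 89603878), in 4 libraries, ranked at 39.55 and 43.35 in WT replicates 1 and 2 and at 36.2 and 59.3 in KO replicates 2 and 3. S6 (89446767 to 89447002), in 3 libraries, ranked at 28.1 in WT replicate 1 and at 30.7 and 42.3 in KO replicates 2 and 3. Both had a −log10 q of at least 5 wherever they were found and reached percentiles above those of S5 in the same libraries. S13 was found in KO replicates 2 and 3, S1 in KO replicate 2 and S3 in KO replicate 1, all at percentiles between 8.08 and 15.95 and under a −log10 q of 5. The only Treg peak of the window, S11 (89523501 to 89523829), was in KO Treg replicate 2 at a percentile of 18.1 and a fold of 4.30, also under a −log10 q of 5. Without that library the Slc4a4 window held 0 Treg peaks in the 5 remaining Treg lists.

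**Figure D2:**
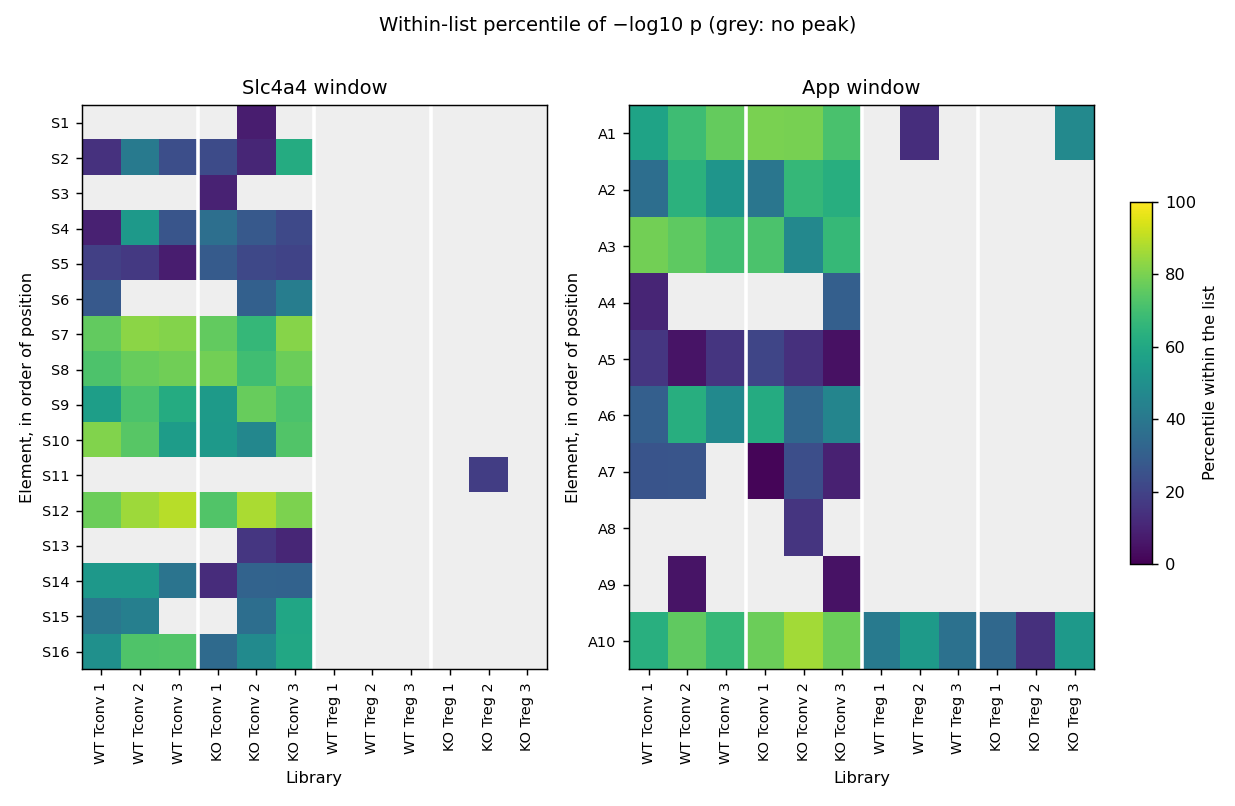
Percentile of each element's peak by −log10 p within its own list (colour, 0 to 100) for the Slc4a4 window (left) and the App window (right); rows are elements by position, columns are libraries, white lines part the 4 groups and grey means no peak. S7 to S10 and S12 form the bright rows at Slc4a4, while A1, A3 and A10 are the bright rows at App.

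The App window differed from the Slc4a4 window in holding an element open in every library. This contrast depends on where the windows were cut. A region from 89193405 to 89194548, 55.45 kb left of the Slc4a4 window, also had a peak in all 12 lists. Its percentile was 93.5 ± 8.15 (SD, n = 12). Another such region, from 84834701 to 84836493, lay 93.5 kb left of the App window. A10 (85172636 to 85174315), at the right end of the window, had a peak in all 12 lists, also in the short list of KO Treg replicate 2. It ranked at 63.2, 75.4 and 67.0 in WT and at 77.7, 86.0 and 77.7 in KO Tconv. In Treg it ranked at 40.9, 54.4 and 37.1 in WT and at 33.6, 13.8 and 54.2 in KO replicates 1 to 3. Every Tconv value lay above every Treg value, with and without KO Treg replicate 2, although lists of different length are not on 1 scale. Its fold did not separate the cell types: it was 6.19 to 7.03 in Tconv and 4.25 to 6.72 in Treg, 5.57 to 6.72 without KO Treg replicate 2.

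The peaks at A10 were also longer in Tconv. They covered 1033, 1142 and 875 bp in WT and 1607, 819 and 1631 bp in KO Tconv. In Treg they covered 327, 531 and 303 bp in WT and 596, 268 and 551 bp in KO. The shortest Tconv value, 819 bp, was above the longest Treg value, 596 bp. In 3 of the 6 Tconv lists the element was split into a left and a right peak, and in the other 3 a single peak reached further left than any Treg peak. The leftmost covered base was 85172636 in Tconv and 85173499 in Treg, so a stretch of the left side was covered in Tconv lists and in 0 Treg lists. The ratio of the median covered lengths, Tconv over Treg, was 2.535, against a median of 0.983 over the 4455 regions with a peak in all 12 libraries. Without KO Treg replicate 2 it was 2.05 against 0.962, and 4 of those regions, A10 included, then had a ratio at least as high. The 4455 regions were still those with a peak in KO Treg replicate 2 as well, and most were stronger than A10. Their Tconv percentile had a median of 86.75 and a lower quartile of 75.8, against 74.5 at A10. This is the contrast the windows were chosen on, and A10 was singled out after its values were seen.

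**Figure D3:**
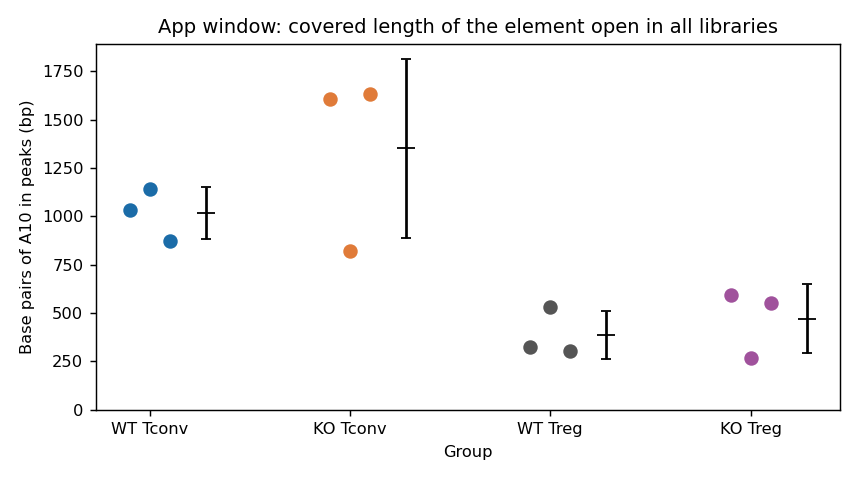
Base pairs of A10 covered by peaks (vertical axis, bp) in each library, by group; points are libraries, and the bar beside them is the mean ± SD of 3. The 6 Tconv libraries lie between 819 and 1631 bp, all above the 6 Treg libraries at 268 to 596 bp.

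A1 (84955574 to 84956165), at the left end of the App elements, was open in all 6 Tconv libraries and in 2 Treg libraries. It ranked at 58.0, 68.9 and 76.4 in WT and at 79.8, 79.4 and 71.3 in KO Tconv. In Treg it was found in WT replicate 2 at 13.05 and in KO replicate 3 at 47.2. The KO Treg replicate 3 peak had a −log10 q of 8.94 and the WT Treg replicate 2 peak one of 4.325, and both ranked below every Tconv peak at A1. A1 is not among the Tconv-enriched elements, since its difference was 4 libraries.

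Between A1 and A10 lay the 5 Tconv-enriched App elements. A3 (84982560 to 84983486) was the strongest, at 78.7, 75.3 and 69.9 in WT and at 71.6, 46.8 and 66.8 in KO Tconv. A2 (84971869 to 84972882) ranked at 36.1, 64.2 and 52.0 in WT and at 39.3, 66.65 and 62.75 in KO Tconv. A3 was above A2 in 5 of the 6 libraries and below it in KO Tconv replicate 2. A6 (84995564 to 84996261) ranked at 30.1, 62.7 and 47.5 in WT and at 61.7, 33.25 and 45.6 in KO Tconv. Its mean of 46.8 ± 13.7 and the 53.5 ± 13.3 of A2 differed by less than the spread between libraries (SD, n = 6). Within libraries, A2 was above A6 in 5 of the 6 and below it in KO Tconv replicate 1.

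A5 (84994310 to 84994871), only 692 bp to the left of A6, was the weakest of the 6 App elements found in all Tconv libraries, and was last in all 6 of them. It ranked at 15.8, 5.46 and 15.3 in WT and at 20.9, 13.8 and 4.495 in KO Tconv. A7 (85000580 to 85001043) ranked at 25.8 and 26.3 in WT replicates 1 and 2, had no peak in replicate 3, and ranked at 1.485, 23.9 and 9.245 in KO Tconv. A5 and A7 were near the limit of detection, with a −log10 q of at least 5 in 1 and 3 Tconv libraries. The other App elements, A4, A8 and A9, were found in 1 or 2 Tconv libraries each, at percentiles from 5.03 to 30.4.

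The borders of the windows bear on the counts. The nearest region left of the Slc4a4 window, from 89220741 to 89220996 and 29.0 kb outside it, had a peak in 1 Tconv and 2 Treg libraries, at a percentile of 17.3 ± 4.74 (SD, n = 3). The first element inside that border was S1, found in 1 library. The nearest region to the right, from 89813275 to 89813559, was 93.3 kb outside and had a peak in 3 Tconv and 0 Treg libraries, at 16.2 ± 12.6 (SD, n = 3), while S16 inside the border had one in 6. Left of the App window the nearest region, from 84879377 to 84879869, was 50.1 kb outside and had a peak in 5 Tconv and 3 Treg libraries, and A1 was the first element inside. To the right, 107.1 kb outside, a region from 85327068 to 85327272 had a peak in 1 Treg library, and A10 was the last element inside. The full columns therefore ended well inside both windows.

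Of the 10 Slc4a4 elements, 6 were stronger than the median region with this pattern, all but S2, S4, S5 and S14. Over the 534 regions of the genome with a peak in 6 Tconv and 0 Treg libraries, the mean Tconv percentile had a median of 37.2 and quartiles of 27.1 and 50.8. The median was 60.1 over the 10 Slc4a4 elements and 50.2 over the 4 App elements. S12 had 8 of the 534 regions above it, S7 had 16, S8 had 20, A3 had 37 and S9 had 46. S5 and A5, at the other end, had 491 and 523 above them. The widths of the merged elements were close to those of the other regions, with medians of 661.5 bp at Slc4a4, 812.5 bp at App and 693.5 bp over the 534.

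The genome was tiled in overlapping intervals of 500 kb, moved in steps of 100 kb, and each of the 17382 intervals with a region was given its number of Tconv-enriched minus Treg-enriched regions. The highest number in an interval over the Slc4a4 window was 10, and 0 intervals elsewhere reached it. The highest over the App window was 5, which 37 intervals away from that window, those over Slc4a4 included, also reached or passed, and 14052 intervals had 0 or fewer. The 3 non-overlapping intervals with the highest numbers outside both windows were chr6:129500001-130000000, with 7 Tconv-enriched regions, chr4:57600001-58100000, with 6, and chr6:66000001-66500000, also with 6. All 3 held 0 Treg-enriched regions. Their Tconv-enriched regions had median percentiles of 45.9, 25.8 and 56.6. These ranks describe how the windows stand among intervals of these libraries and are not tests, as both windows were chosen for their clusters.

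**Figure D4:**
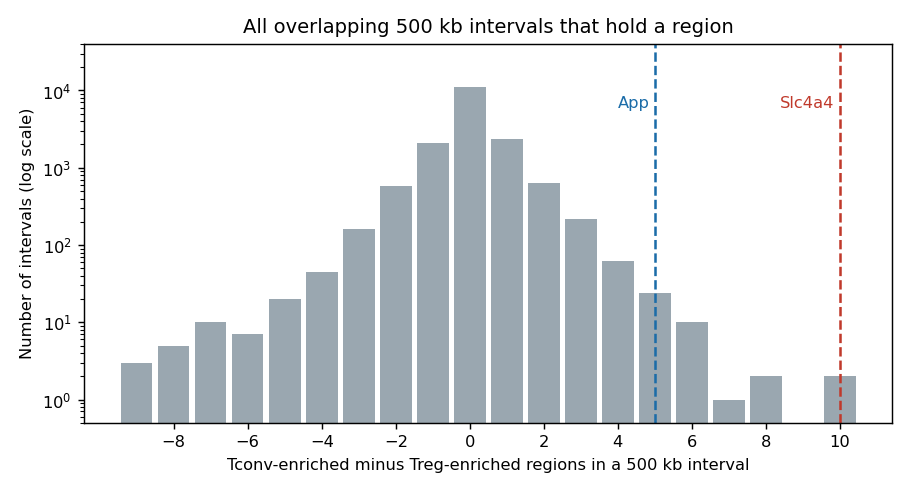
Number of overlapping 500 kb intervals (vertical axis, log scale) by their count of Tconv-enriched minus Treg-enriched regions (horizontal axis); dashed lines mark the highest count over the Slc4a4 window (10) and the App window (5). Most intervals lie at 0, and 10 is the right end of the distribution.

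Genotype was not used to choose the windows, and the comparison of KO with WT Tconv asks whether loss of the Lrrc32 enhancer went with a change at these other loci. All 16 elements with a peak in the 6 Tconv libraries were by definition open in both genotypes, and 0 of the 26 elements were lost in KO Tconv (found in the 3 WT lists but in 0 of the 3 KO lists) or gained (the reverse). Over the 32787 regions found in 2 or more lists the shares were 0.189% lost and 0.793% gained. Only 22 of the 26 elements were in 2 or more lists, and an element in 1 list could not be lost or gained. Read against these shares, the count of 0 is no result about the elements. In WT alone, 10 Slc4a4 and 4 App elements had a peak in 3 of 3 Tconv and 0 of 3 Treg libraries. In KO alone the counts were 10 and 5. The windows were chosen on this contrast in these same libraries, and no share over all regions is given for this rule. Nothing is therefore read from these counts about genotype.

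The number of Slc4a4 elements with a peak was 12, 11 and 10 in WT and 11, 14 and 13 in KO Tconv. The groups overlapped, with means of 11 ± 1 and 12.7 ± 1.53 (SD, n = 3 per group) and an exact permutation p of 0.3 (two-sided). At App the number was 8, 8 and 6 in WT and 7, 8 and 9 in KO Tconv, with means of 7.33 ± 1.155 and 8 ± 1 (SD, n = 3 per group, exact permutation p = 0.7). The design cannot reach 0.05: exchanging 3 and 3 libraries allows no p under 0.1. The KO Tconv lists were longer, 24649 to 25283 peaks against 21269 to 24546 in WT, and with 21269 top peaks taken from every Tconv list the difference KO minus WT fell from 1.67 to 0.333 elements at Slc4a4 (exact permutation p = 1) and from 0.667 to 0.333 at App (exact permutation p = 1). Without WT Tconv replicate 3 the difference at App was 0 elements.

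Base pairs in peaks also overlapped between the genotypes in the full lists. The Slc4a4 window held 5183, 6165 and 5140 bp in WT and 5028, 7558 and 6737 bp in KO Tconv (exact permutation p = 0.4, n = 3 per group). The App window held 3746, 4450 and 2722 bp in WT and 4510, 3771 and 4691 bp in KO Tconv (exact permutation p = 0.2, n = 3 per group). The Slc4a4 difference of 945 bp was 335 bp with equal lists and 386.5 bp without KO Tconv replicate 2. The App difference of 684.7 bp was 226 bp without WT Tconv replicate 3. It was larger, 758 bp, with equal lists (exact permutation p = 0.1, the smallest possible). With −log10 q of at least 5 it was 805.7 bp (exact permutation p = 0.2). As a share of each list, the Slc4a4 window held 4.73 ± 0.258 peaks per 10000 in WT and 5.08 ± 0.631 in KO (SD, n = 3 per group, exact permutation p = 0.5), and the App window 3.43 ± 0.273 and 3.34 ± 0.459 (exact permutation p = 0.8). The difference in share at Slc4a4, 0.355 per 10000, was 0.0557 without KO Tconv replicate 2 and 0.684 without KO Tconv replicate 1. The direction of the share at App depended on single libraries: without KO Tconv replicate 1 the difference KO minus WT was 0.173 per 10000 and without WT Tconv replicate 1 it was 0.0665, against −0.09075 with all libraries. Benjamini-Hochberg adjusted exact permutation values over these 6 comparisons ran from 0.75 to 0.8.

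**Figure D5:**
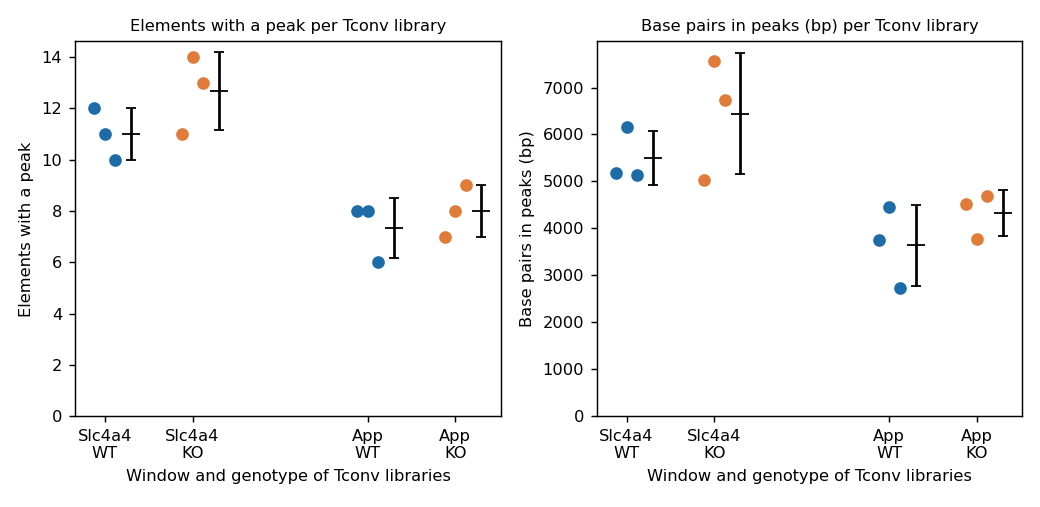
Elements with a peak (left) and base pairs in peaks (right) in each Tconv library of the 2 windows, WT in blue and KO in orange; points are libraries, and the bar beside them is the mean ± SD of 3. WT and KO points overlap in all 4 comparisons.

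Single elements showed few orderly differences in rank between genotypes. Of the 16 elements present in all 6 Tconv libraries, S14 had 3 WT percentiles above all 3 KO percentiles, with means of 48.3 ± 8.59 and 25.3 ± 11.0 (SD, n = 3 per group). S5 and A10 had 3 KO percentiles above all 3 WT percentiles, with means of 14.6 ± 5.78 in WT and 23.5 ± 4.515 in KO at S5, and of 68.55 ± 6.26 and 80.5 ± 4.79 at A10 (SD, n = 3 per group). Each of these 3 has an exact permutation p of 0.1, the smallest possible. Over the 17138 regions with a peak in all 6 Tconv libraries, 3.67% had all WT above all KO and 10.2% all KO above all WT, so 1 and 2 of 16 are close to the background. When each Tconv list was reduced to its 21269 strongest peaks, 12 of the 16 elements kept a peak in all 6. Among these, A10 still had all KO above all WT, S5 no longer did, and A3 had all WT above all KO (76.0, 71.5 and 69.9 against 66.8, 38.3 and 60.6). Over all regions kept in the 6 reduced lists, 5.83% had all WT above all KO and 7.19% all KO above all WT. In the same lists S14 ranked at 47.2, 45.95 and 38.3 in WT and at 20.9 and 18.7 in KO replicates 2 and 3, with no peak left in KO replicate 1.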

How the data were processed

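ATAC-seq peak lists of 12 libraries were used, 1 deposited list per library. Per the submitters' processing notes the build is NCBIM37, and the tools are MACS2, Bowtie2, Trim Galore 0.4.4 and others, in unstated roles. The control input, filters, cut-site shift and depth are not stated in any label or header read here. For every peak the authors deposited a score, a fold ratio over background, a −log10 q and a −log10 p, each comparable within its list. Overlapping or touching peaks of the 12 lists were joined here. A library had an element when any base of its peaks fell inside, and its strength was the highest within-list percentile of −log10 p.

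Groups and replicate numbers follow the titles. Elements named are those that were Tconv-enriched, in at least 11 libraries, or lost or gained in KO. Others named singly were chosen after their values were seen. The members, windows and lists were chosen with earlier results of these data known. Tests were exact two-sided permutations over libraries. The functions were tested on simulated data. Alternatives tried were equal numbers of top peaks, 50% coverage, a −log10 q minimum of 5, gaps of 200 bp, 2 or more lists per element, other call rules, each library left out, and a replicate block. No genome of NCBIM37 was used here, so no sequence of an element is given, and the motif search was moved to RefSeq promoters of GRCm38.p6 after the data were seen. Scripts ran under Python 3.11.15 (scipy 1.17.1, numpy 2.4.6, matplotlib 3.10.9).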

Additional observations from a re-analysis of the deposited data

How the results depend on the processing

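The lists tell a weak signal from an absent one only down to their lower limit, and 3 libraries per group bound every exact permutation p at 0.1. Among 188 alternative values of 14 results, 11 counts changed more than 1.5 times, 6 differences changed sign and 1 fell to 0 (App elements without WT Tconv replicate 3). Other differences kept their sign but not always their size. With −log10 q of at least 5, Slc4a4 elements fell from 1.67 to 0.333 and base pairs from 945 to 122. App base pairs rose from 684.7 to 805.7 with that minimum and to 758 with 21269 top peaks per Tconv list. Leaving out single libraries gave 1 to 2.5 elements and 386.5 to 1652 bp at Slc4a4. At App it gave 0 to 1.17 elements and 226 to 1090 bp. The cause was not tested, except where fewer peaks or libraries enter by construction. With 5262 top peaks per library the Tconv-enriched elements numbered 0 in both windows and 1 App element had a Treg peak. Coverage of 50% left 3 Tconv-enriched App elements and 1 App element with a Treg peak. Elements with a Treg peak in the Slc4a4 window numbered 0 with −log10 q of at least 5, with equal lists without KO Treg replicate 2, and with a minimum of 2 libraries. Leaving out single libraries gave 0 to 1 such elements, 0 without KO Treg replicate 2, and 0 to 1 Slc4a4 elements gained in KO Tconv, 1 (S13) without KO Tconv replicate 1. At least 2 of 3 against 0 of 3 libraries also gave 1 gained. The KO minus WT difference in the Slc4a4 share of peaks was −0.0350 per 10000 with −log10 q of at least 5 and −0.0321 at 50% coverage. In the App share it was 0.0580 with −log10 q of at least 5, 0.157 with 21269 top peaks per Tconv list, and from −0.2455 to 0.173 when single libraries were left out. Counts of elements with all KO percentiles above all WT percentiles fell from 2 to 1 in equal lists, an alternative chosen after seeing the data.

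By their titles, KO and WT Tconv libraries share only replicate numbers. Tconv and Treg libraries of the same genotype and replicate also share both in their titles. Whether such a pair came from the same animal was not determined, and the counts of Tconv against Treg lists do not use this pairing. The sample numbers in the peak names also run by replicate. They were 3 and 4, 7 and 8, and 11 and 12 for WT and KO Tconv replicates 1 to 3. Between KO and WT Tconv libraries of the same replicate number, the correlation of deviations in peak presence was −0.0242, −0.0160 and −0.0150. Between those of different replicate number it ran from −0.0001644 to 0.0159. With the replicate number as a block, the exact sign-flip permutation p was 0.5 for Slc4a4 elements (difference 1.67), 0.5 for base pairs in both windows (945 and 684.7), 0.75 for the Slc4a4 share (0.355) and 1 for App elements (0.667) and the App share (−0.09075), where 0.25 is the smallest possible, so it changed no call.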
